A study of Homo sapiens with 6 samples.

Results

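The genes described here are targets of p53 and its regulators, a list of 31 symbols. A gene was read where at least 1 probe set carried its symbol alone, which 29 of the 31 did, out of 19775 genes read on the arrays. BTG2 and FDXR had no such probe set and are not analysed here, and neither is the gene of p53 itself. The RNA came from MM1S, a human line long grown in culture that was derived from the plasma cell cancer multiple myeloma and is in general use as a line with wild-type p53. The groups were MM1S cells in hypoxia for 24 h (3 arrays) and MM1S cells in normoxia (3 arrays), with no other treatment, allele or cell line named for either; the oxygen level was not found in the labels. Separate cultures are not named for the arrays of a group, so each p-value speaks only to the spread among these 6 samples, and that spread may be technical. In such bulk RNA, fewer cells of a kind and less RNA per cell cannot be told apart. Each array gave a linear intensity per probe set, from biotin-labelled cRNA on single-colour arrays. Each gene is given by its brightest probe set, ranked by log2 values averaged over the 6 arrays. Changes are differences in log2(intensity + 16), hypoxia minus normoxia, so those of dim genes are understated, and "rose" and "fell" are used where the limma adjusted p, over all genes, was under 0.05.

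p53 is a transcription factor that is kept low by the ubiquitin ligase MDM2 and its partner MDM4, and that accumulates after DNA damage and other stresses. It binds DNA as a tetramer at response elements made of paired decamers, and it raises genes that stop the cell cycle, repair DNA, change metabolism or start apoptosis, along with genes that switch p53 off again. Several of its targets answer to other factors as well: SESN1, BTG1, GADD45A and RRM2B to the FOXO factors, which act when growth factor signalling is low, and SESN2, GDF15, GADD45A, TNFRSF10B, PLK3, TP53INP1 and BTG2 to stress pathways such as ATF4 and CHOP. The arrays measure RNA, and p53 protein was not measured.

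Array medians lay between 54.95 and 60.13. Over genes, which are no independent replicates, Pearson's r lay between 0.991 and 0.995 for arrays of one group, and between 0.969 and 0.974 for arrays of different groups. Of 10 hypoxia-responsive genes used to check the labels (ADM, ANKRD37, PDK1, BNIP3L, NDRG1, EGLN1, EGLN3, P4HA1, SLC2A1 and KDM3A), 9 rose, and EGLN3 lay below the array median in both groups. All 10 plasma cell markers, SDC1, CD38, IRF4, PRDM1, XBP1, TNFRSF17, MZB1, JCHAIN, SLAMF7 and POU2AF1, were at or above the median brightness of all single-symbol probe sets. Of them 6 rose or fell (60%), against 58.6% of all genes of that brightness, so the share was near the background. CD38, SLAMF7, SDC1 and MZB1 fell by 0.71, 0.34, 0.30 and 0.26, and XBP1 and POU2AF1 rose by 0.22 and 0.19 (limma adjusted p between 0.000863 and 0.0298). Of 10 measured markers of other cells, 7 were of that brightness. CD14 and LYZ lay below the array median on every array, and they did not pass, nor did COL1A1, KRT8, CD3E and PECAM1. HBB fell and averaged 1125 ± 27.7 in hypoxia and 1751 ± 128 in normoxia (SD, n = 3 each). Its probe set carries the suffix by which the array marks probes that can match other sequences as well. EPCAM and CD3D rose by 1.03 and 0.38 and MS4A1 fell by 1.67. EPCAM lay below the array median in normoxia. The part of either marker list in the results below was not tested.

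Promoters of members that rose, that fell and that did not pass held a match to the p53 decamer, and 5 of them are shown for that reason. The sequences are RefSeq's, on GRCh38.p14, 5′ to 3′ on the gene's strand, and cover the 250 bases before a transcription start. RefSeq windows were found for 25 of the 31 members, at 39 starts. The p53 response-element decamer, searched by its consensus on both strands with no mismatch, was in 6 of these 39 windows (15.4%) and in 5.57% of 35116 such windows of all genes. Capitals mark the decamer. SESN1, which rose, has it at the third of its 3 listed starts, chr6:109008989-109009238 on the minus strand. AEN and RPS27L, which fell, are at chr15:88621090-88621339 on the plus strand and chr15:63157478-63157727 on the minus strand. FAS, which also fell, has it at the second of 3 starts, chr10:88991181-88991430 on the plus strand, and PLK2, which did not pass, at chr5:58460087-58460336 on the minus strand. The sixth window was one of FDXR.
SESN1: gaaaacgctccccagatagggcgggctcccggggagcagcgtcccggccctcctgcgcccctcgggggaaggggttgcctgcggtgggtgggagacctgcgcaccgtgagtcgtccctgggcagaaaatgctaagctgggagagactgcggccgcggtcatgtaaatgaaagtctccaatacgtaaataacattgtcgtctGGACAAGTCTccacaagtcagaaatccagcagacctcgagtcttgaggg
AEN: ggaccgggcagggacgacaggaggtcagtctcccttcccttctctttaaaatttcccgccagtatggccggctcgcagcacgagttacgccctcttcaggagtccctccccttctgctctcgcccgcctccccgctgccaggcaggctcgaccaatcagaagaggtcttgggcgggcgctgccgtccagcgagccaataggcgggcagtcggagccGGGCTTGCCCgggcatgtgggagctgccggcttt
RPS27L: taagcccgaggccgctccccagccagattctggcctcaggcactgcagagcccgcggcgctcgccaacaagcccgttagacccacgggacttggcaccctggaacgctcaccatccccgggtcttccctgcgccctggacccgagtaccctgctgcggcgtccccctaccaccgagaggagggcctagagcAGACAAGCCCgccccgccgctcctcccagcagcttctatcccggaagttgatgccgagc
FAS: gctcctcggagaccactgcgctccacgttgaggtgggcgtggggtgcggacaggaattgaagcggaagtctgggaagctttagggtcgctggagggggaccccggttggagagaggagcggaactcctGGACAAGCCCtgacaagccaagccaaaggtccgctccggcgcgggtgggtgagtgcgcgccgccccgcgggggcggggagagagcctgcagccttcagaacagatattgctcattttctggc
PLK2: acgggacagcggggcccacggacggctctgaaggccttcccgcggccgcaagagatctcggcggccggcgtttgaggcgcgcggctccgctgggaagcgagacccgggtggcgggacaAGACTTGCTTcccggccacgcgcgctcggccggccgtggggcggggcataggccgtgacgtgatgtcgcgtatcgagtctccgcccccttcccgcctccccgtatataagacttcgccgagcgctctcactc

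The decamer begins 49 bases before the start in SESN1, 34 in AEN, 59 in RPS27L, 122 in FAS and 132 in PLK2. By gene, it was found for 1 of 7 members that rose, 3 of 9 that fell and 1 of 7 that did not pass. A match is a description of these letters and not a site, and p53 elements in introns lie outside the windows.

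FOXO motifs were searched as GTAAACA or GTAAATA on both strands, and were found in 4 of the 39 member windows (10.3%), against 5.27% of all windows. They lay in BTG1, MDM4 and SESN1, which rose, and in GDF15, which fell, and are shown in capitals for the single windows of BTG1 (chr12:92145847-92146096 on the minus strand), MDM4 (chr1:204516156-204516405 on the plus strand) and GDF15 (chr19:18385908-18386157 on the plus strand). In SESN1 the match lies 68 bases before the start in the window printed above.
BTG1: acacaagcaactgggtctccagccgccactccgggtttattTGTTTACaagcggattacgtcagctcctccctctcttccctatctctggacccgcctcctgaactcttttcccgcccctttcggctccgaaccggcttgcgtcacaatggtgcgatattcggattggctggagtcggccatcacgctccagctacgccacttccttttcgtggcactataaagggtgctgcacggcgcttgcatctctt
MDM4: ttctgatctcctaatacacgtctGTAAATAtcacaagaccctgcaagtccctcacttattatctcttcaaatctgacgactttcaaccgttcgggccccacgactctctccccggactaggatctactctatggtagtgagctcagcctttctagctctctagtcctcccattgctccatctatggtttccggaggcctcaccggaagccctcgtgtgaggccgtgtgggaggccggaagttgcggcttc
GDF15: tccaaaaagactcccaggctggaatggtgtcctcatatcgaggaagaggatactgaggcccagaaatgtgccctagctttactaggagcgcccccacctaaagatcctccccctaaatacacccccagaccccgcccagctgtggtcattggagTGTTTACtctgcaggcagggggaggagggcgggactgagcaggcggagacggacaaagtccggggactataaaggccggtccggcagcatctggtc

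The core letters bound by hypoxia-inducible factors, ACGTG or GCGTG on either strand, were in 15 of the 39 member windows (38.5%) and in 43.2% of all windows. They were present for 5 of the 7 members that rose, 2 of the 9 that fell and 6 of the 7 that did not pass; members with several starts had several chances to hold them. ATF4 and CHOP motifs, searched as TGATGCAA or TGATGAAA on both strands, and the E-box CACGTG, which contains a hypoxia core, were in 0 of the 39 windows and in 1.7% and 6.34% of all windows.

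p53 targets moved in both directions in hypoxia. Of the 29 measured members, 8 rose (27.6%), 11 fell (37.9%) and 10 did not pass, against 16.9% that rose and 20.6% that fell over all 19775 genes. The members were brighter than most genes: 26 of 29 were at or above the median brightness of all single-symbol probe sets. Of these 26, 30.8% rose and 38.5% fell, against 25.8% and 32.8% of all 11087 genes of that brightness, so the shares were near the background. Members that rose were TP53INP1, ZMAT3, SESN1, FBXW7, BTG1, MDM4, CCNG1 and DDB2, and members that fell were TIGAR, TRIAP1, AEN, GDF15, FBXO22, PLK3, PHLDA3, SESN2, FAS, PPM1D and RPS27L. In either direction 65.5% of the members passed, against 37.4% of all genes and of the 26 bright members 69.2% passed, against 58.6% of all genes of that brightness. The median change was 0.015 over the members and -0.00016 over all genes. On the log2(intensity + 16) scale, rises of at least 2-fold were seen in 2 members and falls of that size in 4. Of all genes, 2.92% and 4.75% had them, and the shares among bright genes were not counted. PLK3 and PHLDA3 averaged 52.4 and 36.0 in hypoxia and 110 and 78.4 in normoxia. They are not among the 4, since the added 16 shrinks changes of dim genes. The groups did not overlap in 23 members (79.3%), against 47.9% of all genes.

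**Figure D1:**
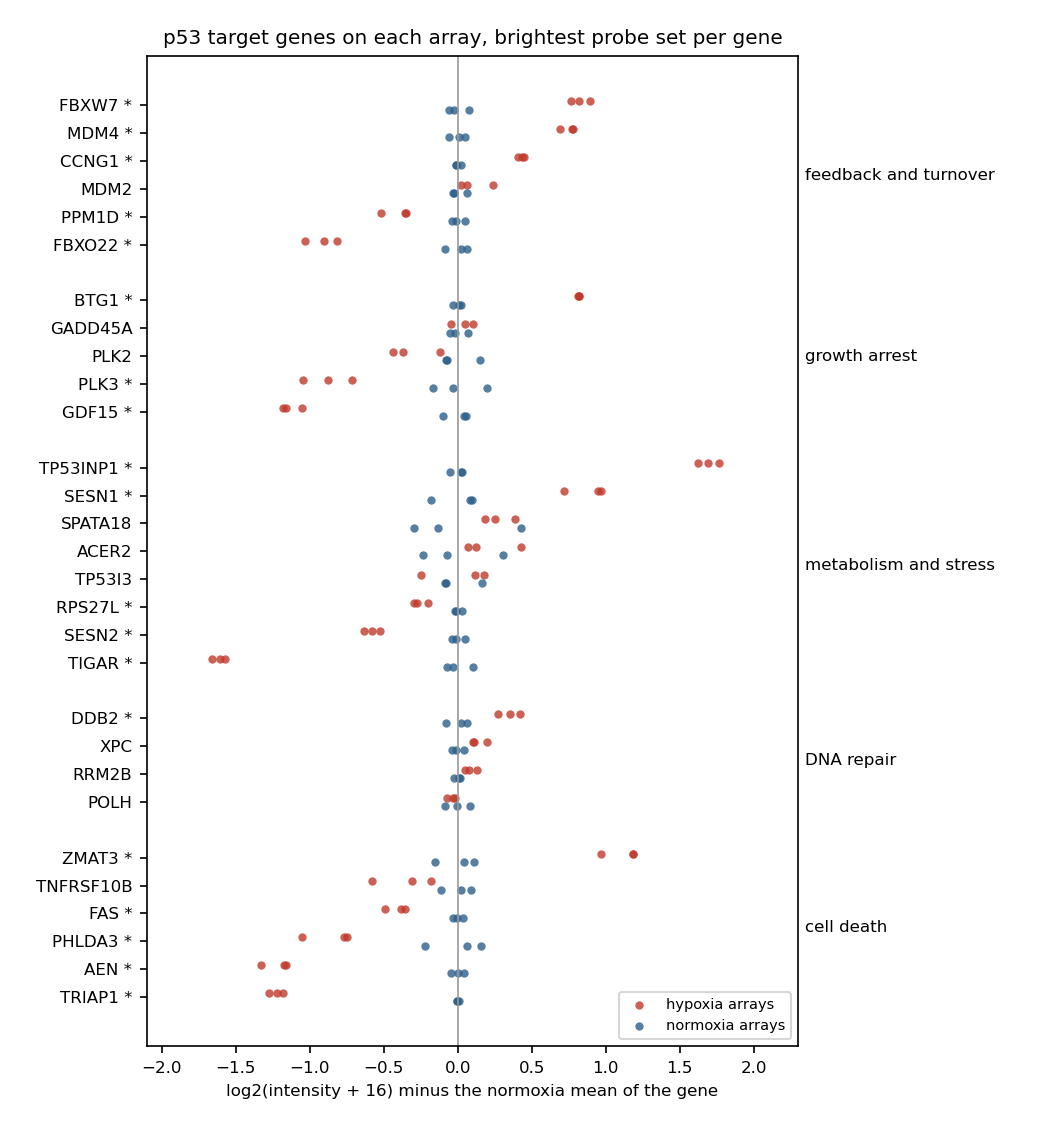
Each of the 6 arrays for the 29 measured p53 targets, as log2(intensity + 16) minus the gene's normoxia mean on the horizontal axis, with genes grouped by role. Red points are hypoxia arrays and blue points normoxia arrays, and an asterisk marks an adjusted p under 0.05 in limma; 8 genes rose and 11 fell, and rises and falls occur in each role but DNA repair.

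Genes that feed back on p53 or act in protein turnover moved in both directions, with 3 of 6 higher, 2 lower and 1 not past the threshold. Over all genes 16.9% rose and 20.6% fell, and over bright ones, at or above the median brightness, 25.8% and 32.8%. MDM2, the ubiquitin ligase that p53 induces and that degrades p53, had intensities of 4578, 4037 and 3923 in hypoxia, against 4035, 3794 and 3784 in normoxia. The groups overlapped, since normoxia replicate 0 exceeded hypoxia replicate 2, and the change was 0.11 (95% confidence interval -0.087 to 0.30, limma adjusted p = 0.368). Averaging its 10 probe sets turned the change to -0.16 (limma adjusted p = 0.0870), and without hypoxia replicate 0 it was 0.040. MDM4, which binds p53 and blocks its activation domain, had 3044, 3226 and 3216 in hypoxia and 1891, 1801 and 1937 in normoxia. It rose by 0.75 (95% confidence interval 0.60 to 0.90, limma adjusted p = 0.000260), and no hypoxia array came near the normoxia range. Averaging its 6 probe sets gave 0.49. The brightest probe set of MDM4 carries the suffix by which the array marks probes that can match other sequences as well.

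FBXW7, the substrate receptor of a ubiquitin ligase for MYC and cyclin E, gave 2793, 2657 and 2553 in hypoxia and 1583, 1474 and 1438 in normoxia. It rose by 0.83 (95% confidence interval 0.66 to 0.99, limma adjusted p = 0.000278). CCNG1, cyclin G1, which directs a phosphatase to MDM2, averaged 11314 ± 156 in hypoxia and 8386 ± 113 in normoxia and rose by 0.43 (limma adjusted p = 0.00115). Both had groups well apart. FBXO22, an F-box protein of a ligase that acts on methylated p53, gave 931, 1085 and 1021 in hypoxia and 1809.6, 1949 and 2012 in normoxia. It fell by 0.92 (95% confidence interval -1.12 to -0.72, limma adjusted p = 0.000365). PPM1D, the phosphatase that dephosphorylates p53 and ATM, averaged 891 ± 58.9 in hypoxia and 1185 ± 38.4 in normoxia and fell by 0.41 (limma adjusted p = 0.00566); averaging both probe sets gave -0.11, which did not pass (limma adjusted p = 0.311).

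Among 5 measured genes of growth arrest, 1 rose, 2 fell and 2 did not pass. Shares that rose and fell were 16.9% and 20.6% over all genes, and 25.8% and 32.8% over bright ones. BTG1, an antiproliferative protein that works through mRNA deadenylation, had 9146, 9192 and 9199 in hypoxia, against 5221, 5087 and 5279.6 in normoxia. It rose by 0.82 (95% confidence interval 0.69 to 0.95, limma adjusted p = 0.000115), with very little spread among the hypoxia arrays. Averaging its 3 probe sets gave 0.47. GADD45A, a growth arrest protein that binds PCNA, averaged 2131 ± 110 in hypoxia and 2078 ± 93.6 in normoxia, with overlapping groups (change 0.036, 95% confidence interval -0.13 to 0.20). GDF15, a secreted stress cytokine of the TGF-beta family, gave 84.7, 93.8 and 86.0 in hypoxia and 197, 219 and 222 in normoxia. It fell by 1.13 (95% confidence interval -1.31 to -0.95, limma adjusted p = 0.000120), and its probe set is also of the kind that can match other sequences. Averaging its 3 probe sets ended the call of GDF15 (-0.40, limma adjusted p = 0.0910), and both others lay below the array median on every array. Intensities of the polo-like kinase genes PLK3 and PLK2 were low. PLK3 gave 60.2, 52.2 and 44.7 in hypoxia and 107, 95.4 and 127 in normoxia and fell by 0.88 (limma adjusted p = 0.00266), while a choice of probe set by the highest lowest value gave -0.036 (limma adjusted p = 0.847). PLK2 averaged 71.6 ± 10.5 in hypoxia and 92.2 ± 9.99 in normoxia (-0.31, limma adjusted p = 0.0845), and passed at 0.0357 when dim genes were left out.

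Of 8 measured genes of metabolism and stress handling, 2 rose, 3 fell and 3 did not pass. For comparison, 16.9% of all genes and 25.8% of bright ones rose, and 20.6% and 32.8% fell. TP53INP1, a stress-induced protein that takes part in p53 phosphorylation and autophagy, had 2422, 2667 and 2532 in hypoxia, against 789, 787 and 745 in normoxia. It rose by 1.69 (95% confidence interval 1.54 to 1.85, limma adjusted p = 3.39e-05). Averaging its 3 probe sets, of which 2 lay below the array median on every array, gave 0.59 (limma adjusted p = 0.00155). TIGAR, a phosphatase that lowers the activator of phosphofructokinase and so restrains glycolysis, had 381, 373 and 358 in hypoxia, against 1253, 1143 and 1111 in normoxia. Its change of -1.61 (95% confidence interval -1.78 to -1.44, limma adjusted p = 4.13e-05) rests on a single probe set, and both genes had every hypoxia array far from every normoxia array.

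The sestrins, which restrain the growth kinase complex mTORC1, moved apart. SESN1 gave 1307, 1554 and 1532 in hypoxia and 694, 835 and 843 in normoxia and rose by 0.88 (95% confidence interval 0.60 to 1.15, limma adjusted p = 0.00148). SESN2, whose protein senses leucine, gave 1889, 1959 and 1821 in hypoxia and 2927, 2813 and 2754 in normoxia and fell by 0.58 (95% confidence interval -0.73 to -0.43, limma adjusted p = 0.000636). The 2 intervals do not overlap, and no sestrin had overlapping groups; the difference between the genes was not itself tested. RPS27L, a paralogue of a ribosomal protein of the small subunit, averaged 7500.1 ± 259.9 in hypoxia and 8969.95 ± 172 in normoxia, with groups that did not overlap. It fell by 0.26 (limma adjusted p = 0.0139), a call lost without hypoxia replicate 1 (adjusted p = 0.0509) or without hypoxia replicate 2 (adjusted p = 0.0545) in limma, and averaging its 3 probe sets gave -0.55. TP53I3, a quinone oxidoreductase and a classic p53-induced gene, gave 167, 221 and 231 in hypoxia and 191, 189 and 228 in normoxia. The groups overlapped, and the change was 0.015 (95% confidence interval -0.33 to 0.36, limma adjusted p = 0.951). SPATA18, which acts in mitochondrial quality control, and ACER2, an alkaline ceramidase, lay below the array median on every array, at 37.6 ± 3.80 and 7.84 ± 3.34 in hypoxia and 29.3 ± 12.4 and 4.80 ± 4.15 in normoxia. Intensities this low may be background. SPATA18 passed when normoxia replicate 0 was left out (change 0.49, limma adjusted p = 0.0175).

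Of 4 genes of DNA repair, 1 rose and 3 did not pass. In either direction 37.4% of all genes and 58.6% of bright ones passed. The groups did not overlap in 3 of the 4, as in 47.9% of all genes, and no test was run on so small a list. DDB2, which recognises ultraviolet damage for nucleotide excision repair, had 1411, 1478 and 1330.0 in hypoxia and 1039, 1148 and 1118 in normoxia. It rose by 0.35 (95% confidence interval 0.17 to 0.52, limma adjusted p = 0.0105). XPC, its partner in damage recognition, averaged 1441 ± 56.0 in hypoxia and 1309.8 ± 38.3 in normoxia (0.14, limma adjusted p = 0.136), and passed under quantile normalization (0.23, limma adjusted p = 0.0179) and with an intensity trend (limma adjusted p = 0.0485). RRM2B, the p53-induced subunit of ribonucleotide reductase, averaged 501 ± 15.2 in hypoxia and 471 ± 6.80 in normoxia (0.086, 95% confidence interval -0.048 to 0.22). POLH, a polymerase that copies past ultraviolet lesions, averaged 286 ± 6.28 in hypoxia and 295 ± 18.3 in normoxia (-0.039, 95% confidence interval -0.20 to 0.12).

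Of 6 genes of cell death and survival, 4 fell, 1 rose and 1 did not pass, where 20.6% of all genes and 32.8% of bright ones fell. The groups did not overlap in any of the 6, as in 47.9% of all genes, and no test was run on so small a list. The RNA-binding zinc finger gene ZMAT3 was the exception in direction, with 2035, 2372 and 2371 in hypoxia, against 928, 1064 and 1118 in normoxia. It rose by 1.11 (95% confidence interval 0.86 to 1.36, limma adjusted p = 0.000415). TRIAP1, a small inhibitor of apoptosis that works in mitochondrial lipid transfer, had 1334, 1376 and 1289.9 in hypoxia, against 3127, 3133 and 3155 in normoxia. It fell by 1.23 (95% confidence interval -1.36 to -1.09, limma adjusted p = 4.55e-05), and the normoxia arrays were nearly equal. AEN, a nuclease of apoptotic DNA digestion, gave 828, 837 and 744 in hypoxia and 1947, 1833 and 1898 in normoxia, and fell by 1.22 (95% confidence interval -1.39 to -1.05, limma adjusted p = 8.50e-05).

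Of 2 death receptors among the members, FAS fell and TNFRSF10B did not pass. FAS gave 1302, 1329 and 1209.7 in hypoxia and 1701, 1752 and 1669.6 in normoxia and fell by 0.41 (95% confidence interval -0.56 to -0.26, limma adjusted p = 0.00314). TNFRSF10B, a receptor for the death ligand TRAIL, gave 1208, 1594 and 1458 in hypoxia and 1679, 1841 and 1929 in normoxia. Its change of -0.36 (95% confidence interval -0.65 to -0.065) did not pass (limma adjusted p = 0.0623), but passed under 6 of 15 alternatives, at 0.0188 with an intensity trend. Averaging its 4 probe sets turned the change to 0.071 (limma adjusted p = 0.518), and its groups did not overlap in the brightest one. PHLDA3, which competes with the kinase AKT for membrane lipids, was dim, at 39.8, 39.0 and 29.3 in hypoxia and 88.8, 64.5 and 82.0 in normoxia. It fell by 0.86 (limma adjusted p = 0.00356), and all its hypoxia values lay below the array median. Averaging its 2 probe sets gave -0.42.

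**Figure D2:**
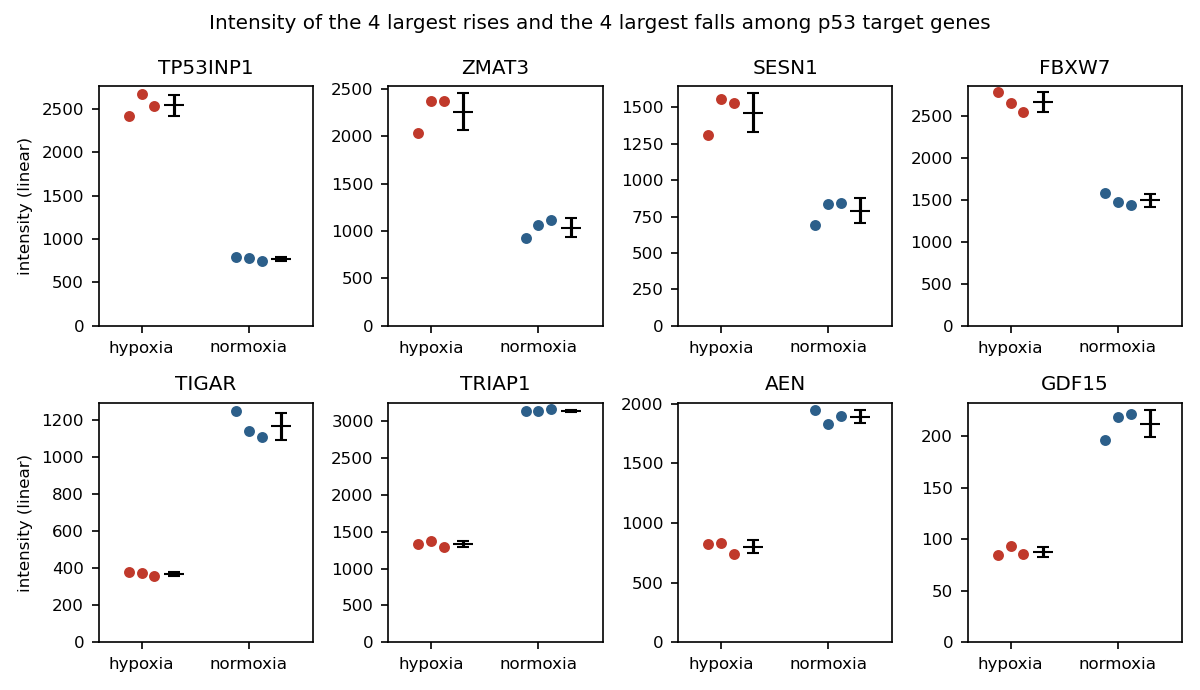
Linear intensity on each array for the 4 members with the largest rises (top) and the 4 with the largest falls (bottom) by their brightest probe set; points are arrays and black bars the mean ± SD of 3 arrays. Hypoxia (red) and normoxia (blue) do not overlap in any of the 8 genes; TIGAR averaged 371 in hypoxia and 1169 in normoxia, and TP53INP1 2540.4 in hypoxia and 773 in normoxia.

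Several probe sets allowed a check of 17 members. The 29 members had 80 probe sets in all, 51 of them beside the brightest ones, and 33.8% of all single-symbol probe sets passed in either direction. Of 33 other probe sets of members that rose or fell, 19 passed in the direction of the brightest one, 1 passed in the opposite direction and 13 did not pass. Where dim probe sets, below the array median on every array, were set aside, 18 of 26 passed in the same direction. All 5 probe sets of ZMAT3 rose, though by sizes from 0.34 to 1.98. FBXO22 had 4 of 5 probe sets lower, with a change of -1.18 in the second brightest, FAS had 4 of 5 lower, with changes down to -0.81, and FBXW7 had 3 of 4 higher, by up to 0.94. Both probe sets of SESN2 fell, and the second of BTG1 rose by 1.06.

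In MDM4 and MDM2 some probe sets passed in a direction that the brightest one did not show. For MDM4, 4 of 6 probe sets rose and the dimmest fell, by 0.29, with 37.7, 45.7 and 40.7 in hypoxia and 49.6, 55.1 and 57.5 in normoxia. For MDM2, 8 of 10 probe sets did not pass, among them the 5 brightest, and the 2 others fell. The larger of these changes was -1.29, with 48.1, 68.8 and 49.3 in hypoxia and 163, 155 and 153 in normoxia (limma adjusted p over all probe sets = 0.000515). RPS27L fell by 1.19 in its dimmest probe set, at 401, 439 and 379.6 in hypoxia and 969, 946 and 922 in normoxia; the change in its brightest was -0.26. In its middle one replicate 0 was high in both groups. It was at 1289 against 667 and 634 in the other hypoxia arrays, and at 1121 against 864 and 842 in the other normoxia arrays. Of the members that did not pass, POLH and TNFRSF10B each had 1 probe set that rose, by 0.40 and 0.66. For TP53INP1, PHLDA3 and GDF15 the other probe sets lay below the array median on every array, so these calls rest on 1 probe set each, as do those of TIGAR, TRIAP1, AEN, SESN1, CCNG1 and DDB2, which have 1.

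**Figure D3:**
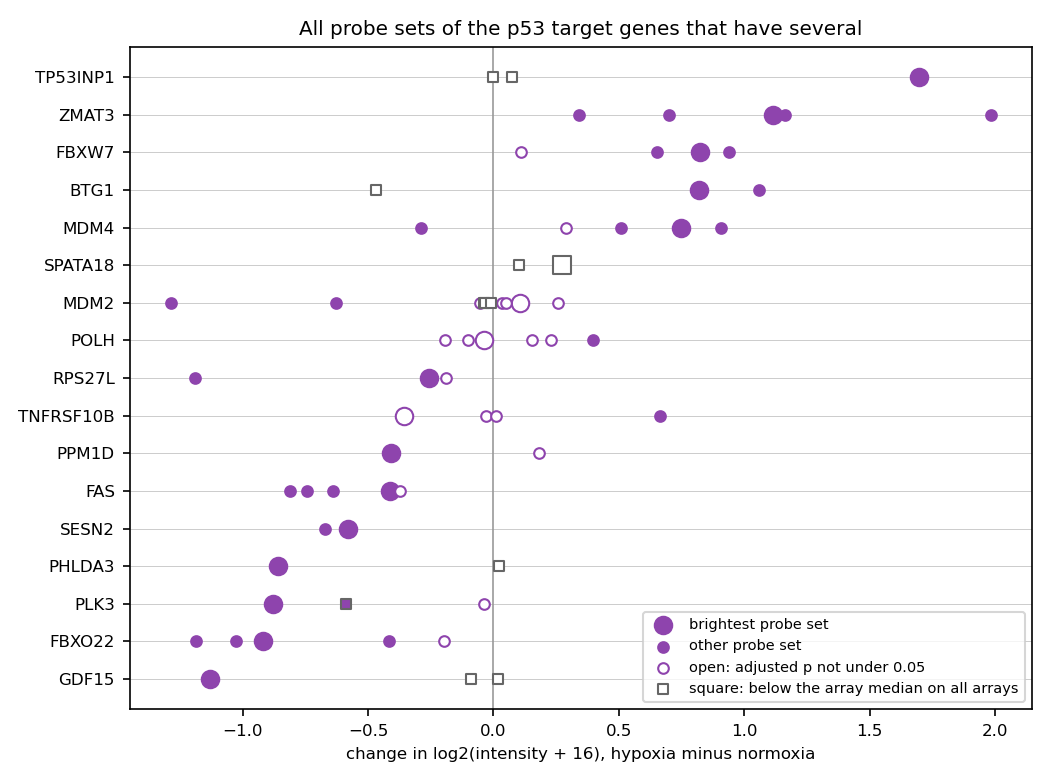
Change in log2(intensity + 16), hypoxia minus normoxia, for every probe set of the 17 members that have several, ordered by the change of the brightest one (large symbol). Filled symbols passed an adjusted p of 0.05 in limma over all probe sets and squares lay below the array median on every array; all 5 probe sets of ZMAT3 are filled on the right, while 8 of 10 of MDM2 are open.

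Members with another known driver were set beside those with none noted. Of 4 members that FOXO factors also drive, SESN1 and BTG1 rose and GADD45A and RRM2B did not pass, with a median change of 0.45. Of 6 measured members that stress pathways also drive, TP53INP1 rose, SESN2, GDF15 and PLK3 fell and GADD45A and TNFRSF10B did not pass, with a median change of -0.47. GADD45A counts in both. Over all genes 16.9% rose and 20.6% fell, and over genes at or above the median brightness 25.8% and 32.8%. Of the 20 measured members with no such driver noted, 5 rose, 8 fell and 7 did not pass, with a median of -0.012. The 3 kinds of member were not tested against each other.

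Lists of FOXO-linked and ATF4- or CHOP-linked genes, which hold no member, are given for comparison. Of 26 FOXO-linked genes, 12 rose, 3 fell and 11 did not pass, with a median change of 0.28. CCNG2, a cyclin related to CCNG1, averaged 7143 ± 52.5 in hypoxia and 2409 ± 154 in normoxia, and rose by 1.56 (limma adjusted p = 4.09e-05). FBXO32, an F-box gene of muscle wasting, rose by 2.37, the phosphoinositide kinase inhibitor gene PIK3IP1 by 2.09 and the repressor gene BCL6 by 1.79, while KLF2, SOD2 and KLF15 fell by 1.78, 0.52 and 0.55. The call of BCL6 was lost with another choice of probe set (0.41, limma adjusted p = 0.121), and the same choice lowered the change of PIK3IP1 to 0.47. BCL6 lay below the array median in normoxia. The fall of SOD2 rests on 1 probe set, the only one with its symbol alone, at 120 ± 1.40 in hypoxia and 179 ± 22.0 in normoxia. Of 19 stress genes, 5 rose, 11 fell and 3 did not pass, with a median of -0.39. CHAC1, PSAT1, SLC7A11 and PHGDH fell by 2.59, 1.29, 1.19 and 1.11, and VLDLR, ERN1, NUPR1 and PPP1R15A rose by 2.77, 0.98, 0.80 and 0.42; NUPR1 lay below the array median. Shares of all genes that rose and fell, given above, were 16.9% and 20.6%. Of the 22 bright FOXO-linked genes 54.5% rose and 13.6% fell, and of the 17 bright stress genes 23.5% rose and 64.7% fell. Among all genes of that brightness the shares were 25.8% and 32.8%.

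Further p53 targets outside the members also moved in both directions. Of 65 measured, 18 rose (27.7%), 14 fell (21.5%) and 33 did not pass, with a median change of -0.016. Over all genes 16.9% rose and 20.6% fell. Of the 53 bright targets on this list 34% rose and 26.4% fell, against 25.8% and 32.8% of all genes of that brightness. In either direction 60.4% of these 53 passed, against 58.6% of all genes of that brightness, so the share was near the background. PMAIP1, the apoptosis gene also called NOXA, averaged 923 ± 91.7 in hypoxia and 4017 ± 165 in normoxia, and fell by 2.11 (limma adjusted p = 4.07e-05). SFN, a 14-3-3 protein of cell cycle arrest, fell by 1.35, PANK1, which starts coenzyme A synthesis, by 1.46 and the ferrireductase gene STEAP3 by 1.12. The calcium channel gene ORAI3 rose by 1.57, ANKRA2 by 1.30, APAF1, the scaffold of the apoptosome, by 1.12 and the fucosidase gene FUCA1 by 0.69, a call that ended when its 2 probe sets were averaged (0.29, limma adjusted p = 0.199). CDKN1A, the kinase inhibitor p21 and the best known p53 target, averaged 3428 ± 139 in hypoxia and 3610.1 ± 154 in normoxia, with a change of -0.074 (limma adjusted p = 0.443). Its groups overlapped, and it was named after its value was seen.

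Of 28 listed regulators of p53, 25 were measured: 9 rose, 5 fell and 11 missed the threshold, with a median change of 0.11. The shares over all genes were 16.9% and 20.6%. Of 24 bright regulators 37.5% rose and 20.8% fell, against 25.8% and 32.8% of all genes of that brightness. In either direction 58.3% of these 24 passed, against 58.6% of all genes of that brightness, so the share was near the background. PPP1R13L, an inhibitor of p53 of the ASPP family, averaged 216 ± 16.4 in hypoxia and 66.8 ± 12.7 in normoxia, and rose (limma adjusted p = 0.000305). The p53 cofactor gene JMY rose by 0.74, the damage kinase gene ATM by 0.51 and RCHY1, another ubiquitin ligase of p53, by 0.48. The checkpoint kinase genes CHEK1, ATR and CHEK2 fell by 1.09, 0.82 and 0.29, and the methyltransferase gene SETD7 by 0.21. The number that fell was 3 under quantile normalization and 2 or 3 when any 1 of the 6 arrays was left out. SETD7 lost its call without each array but hypoxia replicate 0 and CHEK2 without each but normoxia replicate 0, at limma adjusted p up to 0.0909 and 0.115; CHEK2 lost it under quantile normalization too (adjusted p = 0.176). The lists of regulators, further targets, FOXO-linked genes and stress genes were drawn from general knowledge of these pathways. Earlier results of these data were known at that time.

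**Figure D4:**
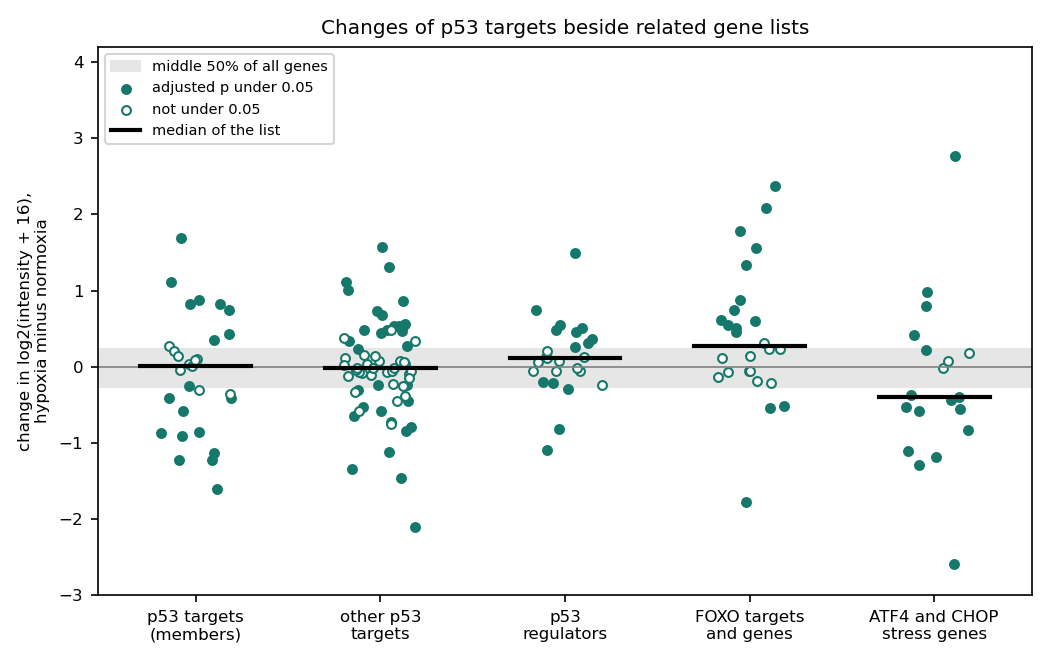
Change in log2(intensity + 16), hypoxia minus normoxia, for the 29 members and the 4 comparison lists; each point is a gene, filled where the adjusted p was under 0.05 in limma. Black bars are list medians and the grey band holds the middle 50% of all 19775 genes; the median is 0.015 for the members, 0.28 for FOXO-linked genes and -0.39 for stress genes.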

How the data were processed

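The authors deposited 54613 rows of probe sets, with linear intensity values for each array; per the labels' protocols, RNA was isolated with the RNeasy kit and labelled with biotin by in vitro transcription. Background correction, probe summary and array scaling by the authors: not given in the sources used. No detection calls were used, so a dim intensity cannot be told from background; the number of arrays limits the precision. Groups came from the condition label. The 24 h treatment text is the same on all 6 arrays. Gene symbols came from the annotation of the platform, updated by Entrez identifier: 41091 carried 1 symbol, 1801 several and 11721 none, and the last 2 kinds were left out. The fit of hypoxia against normoxia used limma 3.58.1 (lmFit, eBayes; R 4.3.3) on log2(intensity + 16), two-sided, without a filter or covariates, with Benjamini-Hochberg adjustment over all 19775 genes. Probe sets were fitted in the same way over all 41091. Members, lists and tests were chosen with earlier results of these data known. Named genes are all members, every gene of the hypoxia check and, of each comparison list, up to 4 that rose and 4 that fell with the smallest adjusted p. The procedure was tested on simulated data. Alternatives were another pseudocount (1 or 64), leaving out dim genes, quantile normalization, median centring, other choices among probe sets, a replicate block, an intensity trend and each array left out in turn.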

Additional observations from a re-analysis of the deposited data

How the results depend on the processing

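Of the 29 measured members, 21 kept their direction where called and their side of the threshold in every alternative that gave a value, of 15 (leaving out dim genes kept 26 members), among them 15 of the 19 that rose or fell. The exceptions were PPM1D, GDF15, PLK3 and RPS27L, whose calls were lost, and PLK2, SPATA18, XPC and TNFRSF10B, which passed, under alternatives such as those named above; no call was reversed. The number of members that rose was 8 or 9 and the number that fell 9 to 13. Of 31 named genes of the comparison lists, 27 kept their calls. The count of p53 regulators that fell was 5, and 3 under quantile normalization and 2 to 3 with 1 array left out; the cause was not tested. With the replicate number as a block, 8 members rose and 12 fell, the added one being TNFRSF10B (limma adjusted p = 0.0344), and 3493 genes rose and 4140 fell over all genes. Deviations of same-numbered arrays from their group means correlated at 0.24, 0.0064 and 0.21. Those of hypoxia replicate 0 with normoxia replicate 2 correlated at -0.25, and those of hypoxia replicate 2 with normoxia replicate 0 at -0.20. Deviations cancel out within a group, so these correlations depend on each other, and a shift shared by same-numbered arrays was not tested. Hypoxia replicate 1 was closer to normoxia replicate 2 (0.11) than to normoxia replicate 1. Whether the numbers mark pairs cannot be told from these values, and the main fit took none. Where normoxia or hypoxia values lie below the array median, as for SPATA18, ACER2 and PHLDA3, signal over background limits the size that can be read.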

Other observations

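Other receptors for TRAIL, named after their values were seen, moved in both directions. TNFRSF10A, the other receptor that signals death, averaged 366 ± 29.4 in hypoxia and 617 ± 22.6 in normoxia and fell by 0.73 (limma adjusted p = 0.000735). TNFRSF10D, a decoy receptor that lacks a working death domain, averaged 163 ± 21.0 in hypoxia and 72.5 ± 1.98 in normoxia and rose by 1.01 (limma adjusted p = 0.000488). TNFRSF10C, the other decoy, gave 56.9, 24.9 and 41.4 in hypoxia and 36.4, 16.8 and 20.3 in normoxia, with overlapping groups below the array median (limma adjusted p = 0.228). TNFRSF10A, TNFRSF10D and TNFRSF10C have 3, 2 and 4 probe sets. Each is given by its brightest and was not followed through the alternatives. The difference between these genes was not tested.

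The sestrin family has another gene on the arrays, SESN3, which FOXO factors drive and which was named after its value was seen. SESN3 has 7 probe sets, is given here by its brightest and was not followed through the alternatives. It averaged 389 ± 26.1 in hypoxia and 225 ± 17.2 in normoxia and rose by 0.75 (limma adjusted p = 0.000859), in the direction of SESN1 and opposite to SESN2.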
